A study of Mus musculus with 141 samples.

Results

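The Slc1a family holds the glutamate and neutral amino acid carriers of the cell membrane, and 5 of its genes, Slc1a2, Slc1a3, Slc1a1, Slc1a4 and Slc1a5, were followed here through the CpG methylation of single mouse glioma cells. Members were all positions of the methylation table inside these genes or within 1 kb of either end, which gave 343 of 1416034 positions: 113 at Slc1a2, 62 at Slc1a3, 62 at Slc1a1, 38 at Slc1a4 and 68 at Slc1a5. Slc1a2 was picked for detail because its CpG-denser end had already been seen to differ between the arms in this table, so that difference is given as a description and supports nothing.

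Single-cell reduced representation bisulfite sequencing, which reads methylation in fragments cut by MspI at CCGG and so favours CpG-dense DNA, had been run on a mouse glioma cell line carrying mutant isocitrate dehydrogenase (IDH) with the R132H change. The cells of both arms carry that mutation. The AG-881 arm held 67 cells grown with AG-881 (vorasidenib, an inhibitor of mutant IDH) at 1 µM for over 2 weeks, and the DMSO arm held 74 cells grown for as long with the vehicle alone. Live cells were sorted 1 per well, and each arm was prepared as 4 library pools, numbered here 1 to 4 for AG-881 and 5 to 8 for DMSO. Each arm came from 1 plate with no further cultures named, and each was therefore taken as 1 sample. No test was run and no difference has a replicate check. The same 24 barcodes served in pools of both arms, no barcode occurred more than once within a pool, and each pool belonged to a single arm, which means that arm and pool cannot be told apart. Transcriptomes of the cells were not analysed here, so glial marker expression was not checked.

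AG-881 cells had calls at a median of 93087 CpGs (24930 to 197154), and DMSO cells at a median of 70449 (10853 to 172109). The methylated share of a cell's calls averaged 32.8% ± 3.57 with AG-881 (SD over 67 cells) and 33.7% ± 2.82 with DMSO (SD over 74 cells). AG-881 pool 3 stood apart at 36.2%, against 30.7% to 32.5% in the other AG-881 pools and 32.5% to 34.8% in the DMSO pools.

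Slc1a2 encodes GLT1, the main glutamate carrier of astrocytes, and Slc1a3 encodes GLAST, which astrocytes and radial glia share. Both clear glutamate from around synapses, driven by the sodium gradient. Slc1a1 encodes EAAC1, a mainly neuronal carrier of glutamate that also brings in cysteine. Slc1a4 (ASCT1) and Slc1a5 (ASCT2) exchange neutral amino acids, serine and alanine among them for ASCT1 and glutamine for ASCT2. CpG-dense gene starts are usually unmethylated, whereas CpGs inside genes are usually methylated. Mutant IDH makes 2-hydroxyglutarate, which inhibits the TET enzymes that oxidise methylated cytosine.

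Promoter sequence was available for 4 of the 5 genes as windows of 300 bases, 250 before and 50 after a transcript start (RefSeq, GRCm38.p6, the same sequence as mm10). Of these, 3 are shown because they span the range of what MspI fragments could report. Capitals mark each CG that had a call in at least 1 cell. The Slc1a1 window (chr19:28834885-28835184, plus strand) had 32 CG, 24 of them called, and 4 CCGG sites. The Slc1a3 window (chr15:8710758-8711057, minus strand, written 5′ to 3′) had 3 CG and the Slc1a2 window (chr2:102706188-102706487, plus strand) had 1 CG, and neither held a CCGG site or a called CG.
Slc1a1: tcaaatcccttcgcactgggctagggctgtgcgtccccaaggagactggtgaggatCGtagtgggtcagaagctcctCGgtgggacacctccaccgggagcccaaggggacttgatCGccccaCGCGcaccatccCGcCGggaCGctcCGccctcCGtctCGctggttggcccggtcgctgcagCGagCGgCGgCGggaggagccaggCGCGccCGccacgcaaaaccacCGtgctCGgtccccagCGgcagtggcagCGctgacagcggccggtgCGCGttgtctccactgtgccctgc
Slc1a3: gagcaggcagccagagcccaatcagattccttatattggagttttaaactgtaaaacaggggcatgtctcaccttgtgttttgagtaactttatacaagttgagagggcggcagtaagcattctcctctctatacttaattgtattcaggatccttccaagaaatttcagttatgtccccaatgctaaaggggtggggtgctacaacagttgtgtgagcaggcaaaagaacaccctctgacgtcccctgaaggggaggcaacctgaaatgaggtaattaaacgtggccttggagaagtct
Slc1a2, internal start: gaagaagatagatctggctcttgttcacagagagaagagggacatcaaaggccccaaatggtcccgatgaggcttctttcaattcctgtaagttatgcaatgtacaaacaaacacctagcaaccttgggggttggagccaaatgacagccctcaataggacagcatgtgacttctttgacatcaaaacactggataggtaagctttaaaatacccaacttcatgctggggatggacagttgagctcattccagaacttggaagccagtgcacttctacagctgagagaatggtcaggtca
The Slc1a2 window belongs to a transcript start 48.2 kb inside the gene and not to the CpG-rich 5′ end that carries the values below, whose sequence is not printed here. The Slc1a4 window (chr11:20332664-20332963, minus strand, not printed) had 21 CG, 2 of them called, and 1 CCGG site. Among all 32851 such windows, 52.8% held CCGG, which reads the same on both strands, the median was 7 CG, 14.1% had at most 1 CG, 31.4% at most 3 and 9.52% at least 32. A gene's level below is that of the positions in the table, wherever the promoter window lies.

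Levels were compared at CpGs with calls in 5 or more cells per arm, each call being methylated or not. Intervals are exact 95% Clopper-Pearson intervals, differences are AG-881 minus DMSO in percentage points, and the CpG-denser end is the one of a gene's 2 ends with more CpG positions within 1 kb. Intervals cover counting error only and take every call as independent. Calls of 1 cell within a stretch go together, so the intervals are too narrow. That end is the 5′ end in Slc1a2, Slc1a3, Slc1a1 and Slc1a4; for Slc1a5 the strand was not in the promoter table. The files give no read depth behind a call, and exon and intron limits were not used here.

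At the 5′ end of Slc1a2 (gene at chr2:102658239-102790784, plus strand), 41 of 66 CpGs could be compared, and the few methylated calls were fewer with AG-881. All 41 lie inside the gene, and none of the 3 called CpGs before its start could be compared. In all, 19 of 499 calls were methylated with AG-881 (3.81%, 2.31 to 5.88) and 46 of 294 with DMSO (15.6%, 11.7 to 20.3), a difference of -11.8 points (-16.7 to -7.37). By pool, AG-881 had 2.75% of 109 calls, 0.909% of 110, 3.96% of 101 and 6.15% of 179 in pools 1 to 4. DMSO had 23.6% of 72 calls, 18.5% of 65, 7.53% of 93 and 15.6% of 64 in pools 5 to 8. Every AG-881 pool was thus below every DMSO pool, an order found at 1.3% of 9058 gene ends with calls in all 8 pools. Nothing is read from that share, since Slc1a2 was chosen for the difference between its arms. The share also covers many ends with little room for pools to separate, as 73.1% of measured ends were below 5% in both arms. It was not computed for ends of a like level. AG-881 pool 3, the pool with the highest level genome-wide, held a value inside the range of its arm here.

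Position by position, 19 of the 41 CpGs were lower with AG-881, 2 were higher and 20 had no methylated call in either arm. Over the whole gene, 49 of 100 CpGs could be compared, 22 of them lower (44.9%) and 6 higher (12.2%), against a background of 22.1% lower and 18.4% higher among all 419609 CpGs compared. Since Slc1a2 was chosen for the difference between its arms, nothing is read from these shares. The background was also not matched for level. Neighbouring CpGs were read in the same cells, so the 22 are not independent, and 3 were lower with a minimum of 10 cells per arm. Without DMSO pool 5, 14 were lower, and without DMSO pool 7, 9 were, with fewer CpGs compared.

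Most methylated calls fell into 2 groups of CpGs, with nearly unmethylated CpGs between them. The first group was the 3 CpGs that lie 115, 171 and 194 bp into the gene, the only ones compared in the first 500 bp. The first pair had 5 of 19 calls methylated with AG-881 (26.3%, from 3 of 10 cells) and 13 of 25 with DMSO (52%, from 10 of 14 cells). The CpG at 171 bp had 2 of 10 AG-881 cells methylated and 8 of 14 DMSO cells. The CpG at 194 bp went the other way, with 5 of 12 AG-881 cells methylated and 4 of 11 DMSO cells. All 3 CpGs together gave 32.3% with AG-881 (16.7 to 51.4) and 47.2% with DMSO (30.4 to 64.5), and those intervals overlapped.

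Between 580 and 773 bp into the gene almost nothing was methylated. There, 1 of 127 calls was methylated with AG-881 (0.787%) and 6 of 123 with DMSO (4.88%). The DMSO calls all lay in the first stretch, 580 to 626 bp, where they came from 3 of 12 cells. The same stretch had 0 of 63 calls in 10 AG-881 cells. That allows a level of up to 4.76% if calls are taken as independent, and a higher one since they came from so few cells.

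The second group was the 12 CpGs from 796 to 845 bp, which held the largest number of the window's methylated DMSO calls. Methylated calls numbered 8 of 144 with AG-881 (5.56%, 2.43 to 10.7) and 21 of 80 with DMSO (26.3%, 17.04 to 37.3). Cell by cell, 10 of 12 AG-881 cells had no methylated call in this stretch, 1 cell of pool 4 had 7 of 12 CpGs methylated and 1 cell of pool 3 had 1 of 12. Of 7 DMSO cells, 4 had none, and the others had 9 of 12 (pool 5), 8 of 12 (pool 6) and 4 of 12 (pool 7). Several CpGs of the stretch were thus methylated at once in 1 AG-881 cell and 3 DMSO cells, and all of its methylated calls came from 2 AG-881 and 3 DMSO cells. The CpGs at 820 and 822 bp each had 0 of 12 AG-881 cells methylated and 3 of 7 DMSO cells.

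From 871 to 972 bp into the gene, 11 CpGs were again unmethylated, with 0 of 197 calls with AG-881 and 2 of 55 with DMSO (3.64%), both at 972 bp. This unmethylated part was read in more AG-881 cells (19, against 5 DMSO cells) and gave 39.5% of the AG-881 calls of the window but 18.7% of the DMSO calls. Without these CpGs the levels were 6.29% with AG-881 and 18.4% with DMSO, or -12.1 points, and with every CpG of the window weighted equally the difference was -9.11 points.

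**Figure D1:**
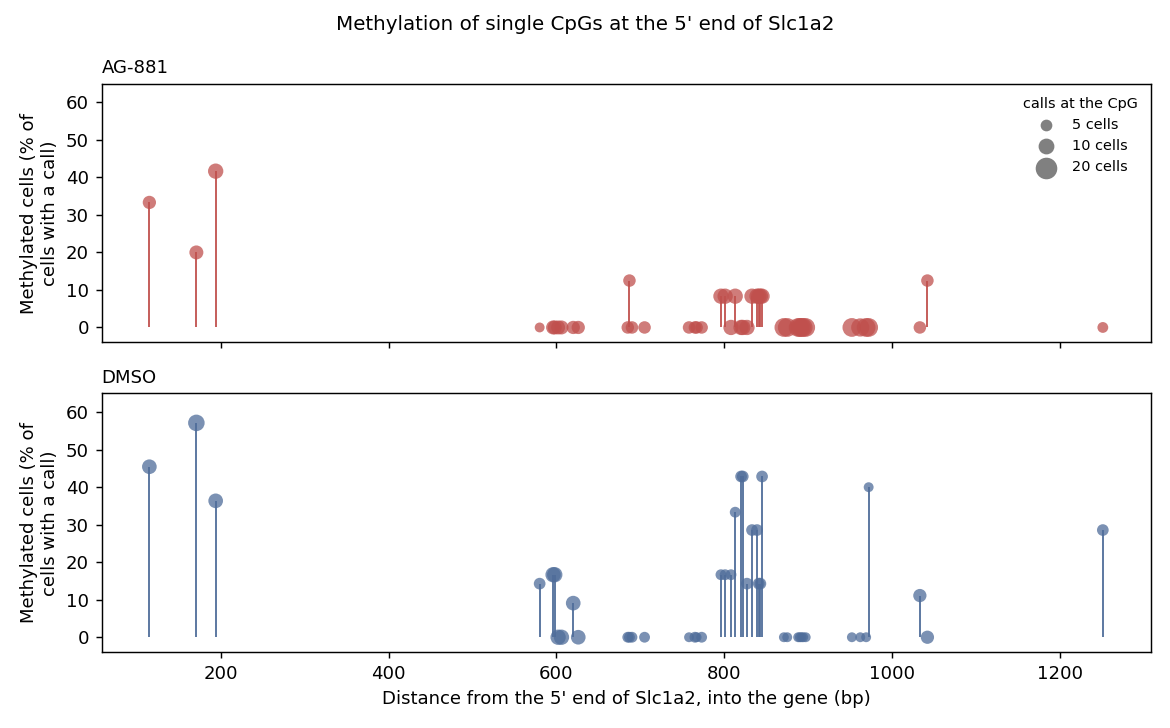
Methylation at each compared CpG near the 5′ end of Slc1a2, as the percentage of cells with a call that were methylated, against the distance into the gene in bp, for AG-881 (top) and DMSO (bottom); dot size gives the number of cells with a call. With AG-881 the CpGs from 796 to 845 bp lie at or below 10%, and with DMSO they reach 42.9%; the plot also shows 3 CpGs beyond 1000 bp.

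**Figure D2:**
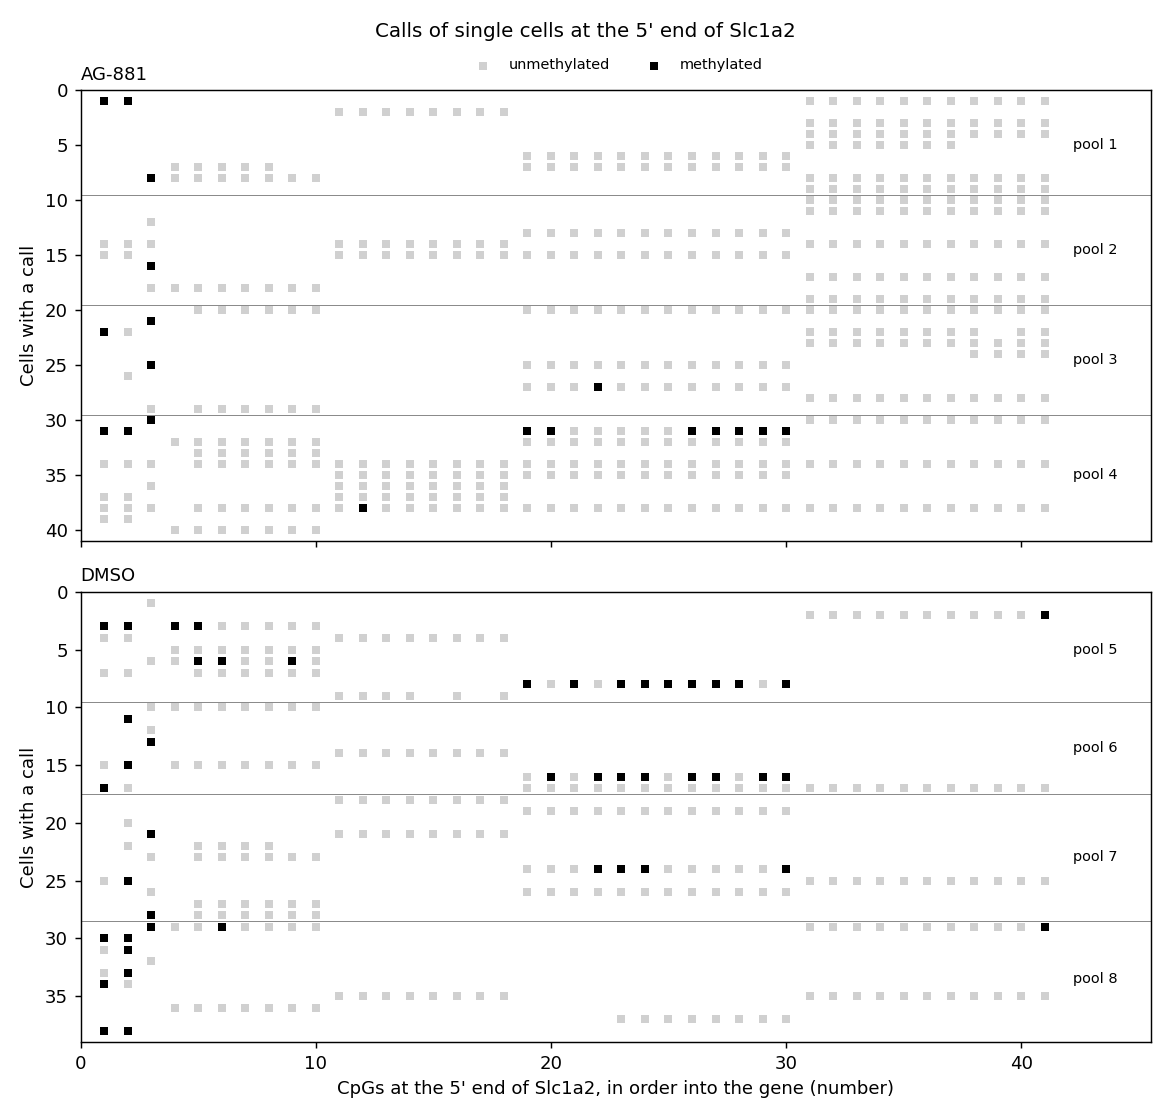
Calls of every cell (rows, grouped by library pool) at the 41 compared CpGs of the Slc1a2 5′ end (columns, in order into the gene), with methylated calls in black and unmethylated calls in grey, for AG-881 (top) and DMSO (bottom). Cells cover the window in blocks, and methylated calls collect in 10 of 40 AG-881 cells and 19 of 38 DMSO cells.

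Counted by cell, 10 of 40 AG-881 cells with a call at the window had a methylated call (25%, 12.7 to 41.2) and 19 of 38 DMSO cells did (50%, 33.4 to 66.6). AG-881 cells had more calls there, with a median of 11 per cell against 8 in DMSO cells. The last 11 compared CpGs of the window, nearly unmethylated in both arms, gave 197 AG-881 calls and 55 DMSO calls. Outside these CpGs, 29 of the 40 AG-881 cells had a call, and 37 of the 38 DMSO cells did. The remaining AG-881 cells were read only where that arm had no methylated call, which lowers its share by cell. Shares by cell were not computed without these CpGs, here or in the set below. Among cells with at least 8 calls, 8 of 30 AG-881 cells and 11 of 20 DMSO cells had a methylated call, and 1 AG-881 cell and 5 DMSO cells had at least 25% of their calls methylated. In that set the lowest, median and highest levels were 0%, 0% and 64.3% with AG-881, and 0%, 5.85% and 75% with DMSO. Single cells held much of the signal: 1 AG-881 cell gave 9 of that arm's 19 methylated calls, and 3 DMSO cells gave 21 of 46. Leaving out each of the 78 cells in turn moved the difference between -13.6 and -9.31 points. Cells with a methylated call had a somewhat higher level genome-wide, with a median of 34.3% against 32.2% in the other AG-881 cells and 34.7% against 33.04% in the other DMSO cells; its part in the result was not tested.

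Inside Slc1a2, beyond 1 kb from its ends, 8 of 34 CpGs could be compared and the arms lay close together. The level was 62.1% with AG-881 (41 of 66 calls) and 63.5% with DMSO (47 of 74 calls), which differ by -1.39 points (-18.2 to 15.3), and the sign turned in 6 of the 14 other settings tried. The low values of the 5′ end reached a little way beyond 1 kb. The 2 CpGs at 1033 and 1042 bp had 1 of 16 calls methylated with AG-881 and 1 of 18 with DMSO, and the CpG at 1251 bp had 0 of 6 with AG-881 and 2 of 7 with DMSO. Further in, the gene was mostly methylated in both arms, as in a pair of CpGs 81.6 kb in, with 21 of 23 calls methylated with AG-881 and 18 of 20 with DMSO. No CpG within 1 kb of the 3′ end had a call.

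Among the 5 members, Slc1a2 alone was lower with AG-881 by at least 10 points at its CpG-denser end, against a background of 3.51% of 9193 measured gene ends. Since Slc1a2 was chosen for that difference, nothing is read from the count. In any size, 4 of 5 members were lower with AG-881, against 51.4% of gene ends (31.6% were higher). The 4 include Slc1a2 itself, and Slc1a5 at -0.203 points, which turned to 0.952 points without DMSO pool 5. Nothing is read from this count either.

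Slc1a3, the gene of the other astrocyte glutamate carrier (chr15:8634124-8710807, minus strand), was almost unmethylated at its 5′ end. It had 1 of 121 calls methylated with AG-881 (0.826%, 0.0209 to 4.52) and 5 of 131 with DMSO (3.82%, 1.25 to 8.68), a difference of -2.99 points (-7.92 to 1.51). The methylated calls came from 1 of 28 AG-881 cells and 4 of 33 DMSO cells, and pools ran from 0% to 4.55% with AG-881 and from 0% to 8.33% with DMSO, so the pools overlapped. Of the 12 CpGs compared, all inside the gene, 3 were lower with AG-881 and 9 had no methylated call.

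The 11 compared CpGs inside Slc1a3 were nearly fully methylated apart from 1 pair. Stretches 22.4, 28.9, 40.01, 59.8 and 67.9 kb into the gene were 95.5% to 100% methylated with AG-881 and 90.0% to 100% with DMSO. The pair 47.1 kb into the gene (chr15:8663634-8663701) had 0 of 19 calls methylated in 10 AG-881 cells and 0 of 29 in 15 DMSO cells. Taking calls as independent, that allows up to 15.8% with AG-881 and 10.3% with DMSO, and more when counted by cell. Pooled over 11 CpGs the body had 79.8% with AG-881 (79 of 99 calls) and 65.9% with DMSO (58 of 88), 13.9 points higher with AG-881 (0.425 to 27.05). With every CpG weighted equally the difference was 0.992 points, 9 of the 11 CpGs had equal levels in both arms, and the unmethylated pair made up more of the DMSO calls. Over all 42 called CpGs of the body, others with low levels in few cells among them, the level was 70.4% with AG-881 and 62% with DMSO. Such CpGs were common: 33.1% of 115528 CpGs compared inside genes had no methylated call in either arm.

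Slc1a1, the gene of the neuronal carrier (chr19:28835135-28913960, plus strand), was the one member with over 20% methylated calls at its 5′ end in both arms. It had 41 of 177 calls methylated with AG-881 (23.2%, 17.2 to 30.1) and 42 of 198 with DMSO (21.2%, 15.7 to 27.6), a difference of 1.95 points (-6.79 to 10.8). Pools ran from 15.6% to 32.3% with AG-881 and from 12.1% to 32.7% with DMSO. Each arm's pools thus spread over more than 16 points, wider than the difference, whose sign turned in 8 of the 26 other settings (-2.19 points without DMSO pool 5). A methylated call was present in 18 of 32 AG-881 cells and 24 of 37 DMSO cells.

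Most of the compared CpGs of Slc1a1 lie in the promoter window printed above. All of its 24 called CpGs together, 15 of which could be compared, had 40 of 183 calls methylated with AG-881 (21.9%) and 43 of 212 with DMSO (20.3%). The 4 CpGs from 134 to 115 bp before the start were methylated in 24.5% of AG-881 calls and 22.1% of DMSO calls. For the 11 CpGs from 66 bp before to 8 bp after it these shares were 17.1% with AG-881 and 13.6% with DMSO. The CpG 327 bp into the gene was higher than these in both arms, with 10 of 17 AG-881 cells methylated (58.8%) and 11 of 18 DMSO cells (61.1%). Inside the gene the level was 79.0% with AG-881 (64 of 81 calls) and 69.4% with DMSO (50 of 72), a difference of 9.57 points (-5.14 to 24.1); the pools overlapped. All 5 CpGs were higher with AG-881, but they lie in only 3 stretches, each read in the same cells. The share of CpGs higher with AG-881 was not computed for CpGs inside genes, so this count has no matching background. Pooled over the 115528 CpGs compared inside genes, AG-881 cells stood at 39.5% and DMSO cells at 41.2%.

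Of the neutral amino acid carriers, Slc1a4 (chr11:20302180-20332713, minus strand) had 1 of 225 calls methylated at its 5′ end with AG-881 (0.444%, 0.0113 to 2.45) and 8 of 252 with DMSO (3.17%, 1.38 to 6.16). The difference was -2.73 points (-5.75 to -0.0382), and pools ran from 0% to 2.13% with AG-881 and from 0% to 5.48% with DMSO. At least 1 methylated call was found in 1 of 35 AG-881 cells and 6 of 42 DMSO cells. The DMSO calls were spread over 5 of the 6 stretches of the window, from 777 bp before the start to 446 bp into the gene, with no stretch above 5.71%. Inside Slc1a4 a single CpG was called, in 1 cell, so its body was not compared.

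Slc1a5 (chr7:16781334-16798274) was unmethylated at its CpG-denser end in both arms, with 1 of 157 calls methylated with AG-881 (0.637%) and 1 of 119 with DMSO (0.840%), a difference of -0.203 points (-4.01 to 2.77) that came to -5.56 without AG-881 pool 3 and to -5 without DMSO pool 6. The CpGs compared at that end all lie inside the gene. The level of Slc1a5 changed within the first 2 kb of the gene. The stretch from 861 to 1024 bp into the gene had 0 of 42 calls methylated with AG-881 and 0 of 61 with DMSO, and the pair at 1860 and 1875 bp had 12 of 16 (75%) with AG-881 and 7 of 10 (70%) with DMSO, with no CpG called in between. Its other end was methylated, at 96.4% with AG-881 (27 of 28 calls) and 90.0% with DMSO (36 of 40). The body had 12 of 31 calls methylated with AG-881 and 7 of 31 with DMSO, over 5 CpGs, a difference of 16.1 points (-8.91 to 39.2) that was 0 without any 1 of pools 1, 3, 5 and 8 and 2 points with every CpG weighted equally. Of these CpGs, 3 belong to the unmethylated stretch that ends at 1024 bp. Without DMSO pool 5 or 8 only those 3 were compared, so no difference could appear there. Over all 29 called CpGs of the body the level was 76.4% with AG-881 and 65.8% with DMSO.

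**Figure D3:**
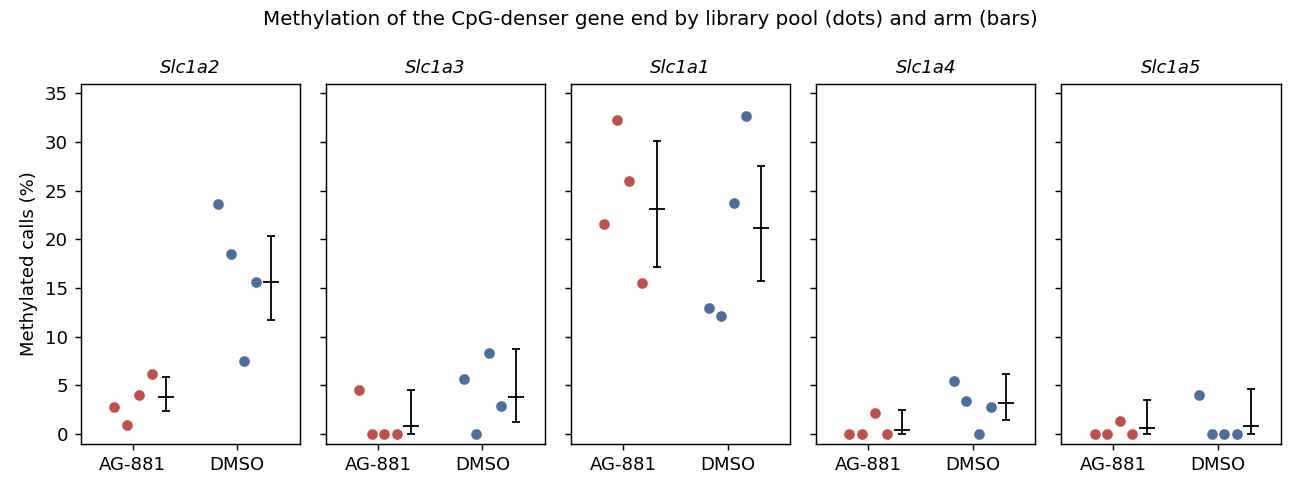
Percentage of methylated calls at the CpG-denser end of each Slc1a gene, per library pool (dots, pools 1 to 4 for AG-881 and 5 to 8 for DMSO) and over each arm (horizontal mark, with its exact 95% interval for counting error). The AG-881 pools of Slc1a2 lie between 0.909% and 6.15%, below its DMSO pools at 7.53% to 23.6%, and in the other genes the pools overlap.

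**Figure D4:**
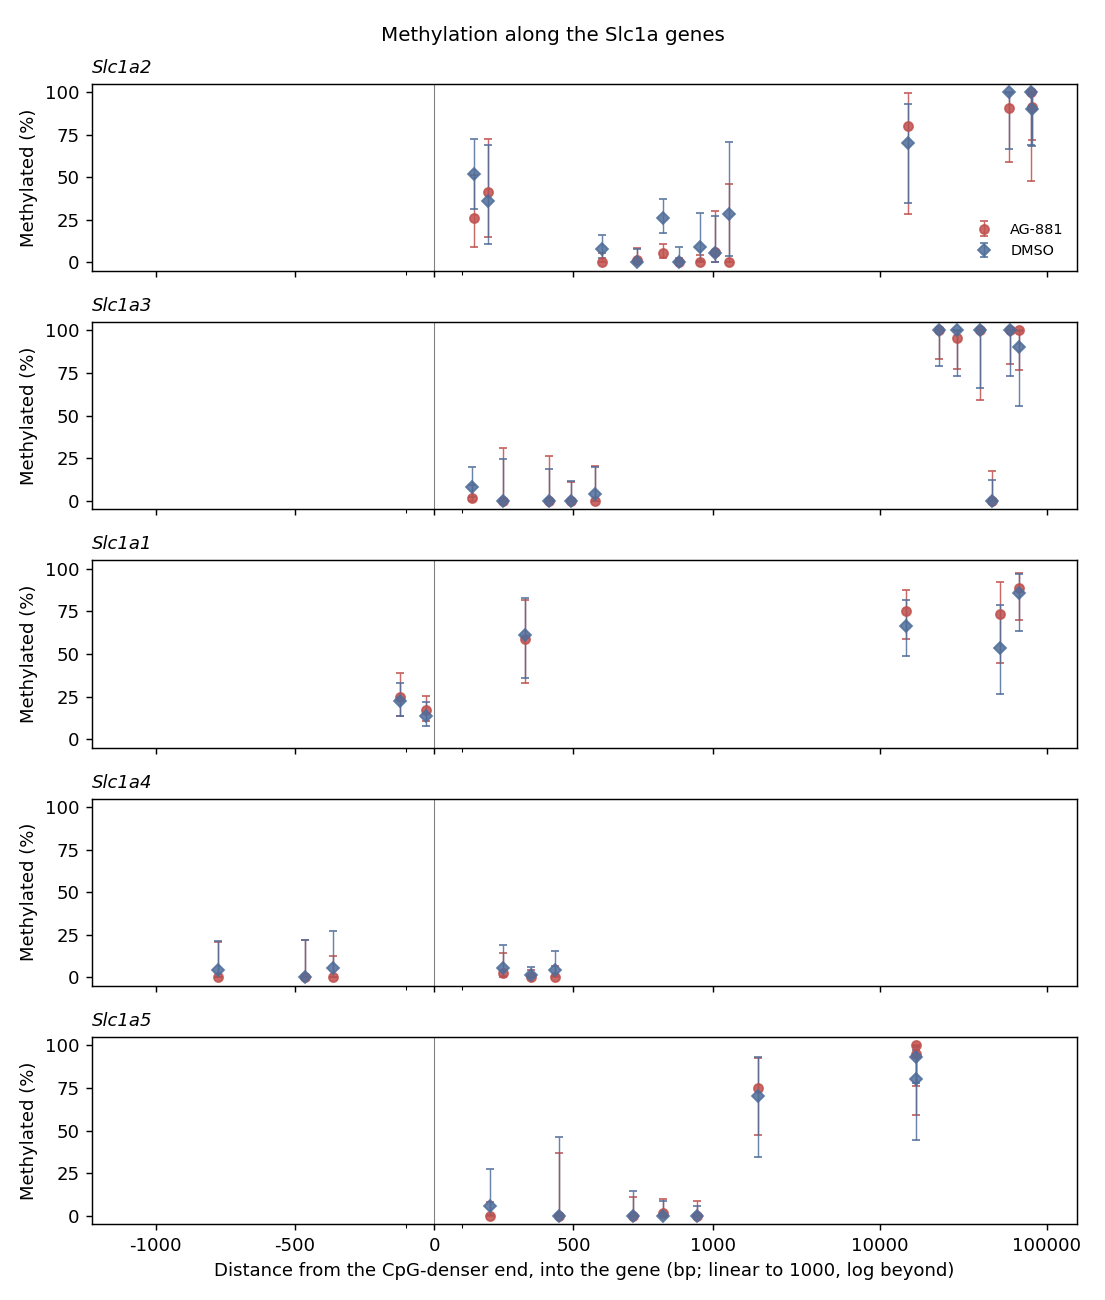
Methylation of each stretch of CpGs read in the same cells along the 5 genes, as a percentage of calls with exact 95% intervals for counting error, against distance from the CpG-denser end into the gene (linear to 1000 bp, log beyond). Stretches near the CpG-denser ends of Slc1a3, Slc1a4 and Slc1a5 lie below 10% in both arms, those of Slc1a1 and some of Slc1a2 (in its first 200 bp, and with DMSO from 796 to 845 bp) lie higher, and stretches deep inside the genes lie high except for the unmethylated pair of Slc1a3.

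Set among all 9193 gene ends, Slc1a2 was a sizeable decrease but not an extreme one. Its difference ranked 219 from the largest decrease, the 1st percentile of all differences being -16.0 points. The median difference over all ends was -0.0301 points, and 73.1% of ends were below 5% in both arms, where a decrease of 10 points cannot occur. Among the 1059 ends with a mean level of 5% to 20%, 7.84% were lower with AG-881 by at least 10 points.

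**Figure D5:**
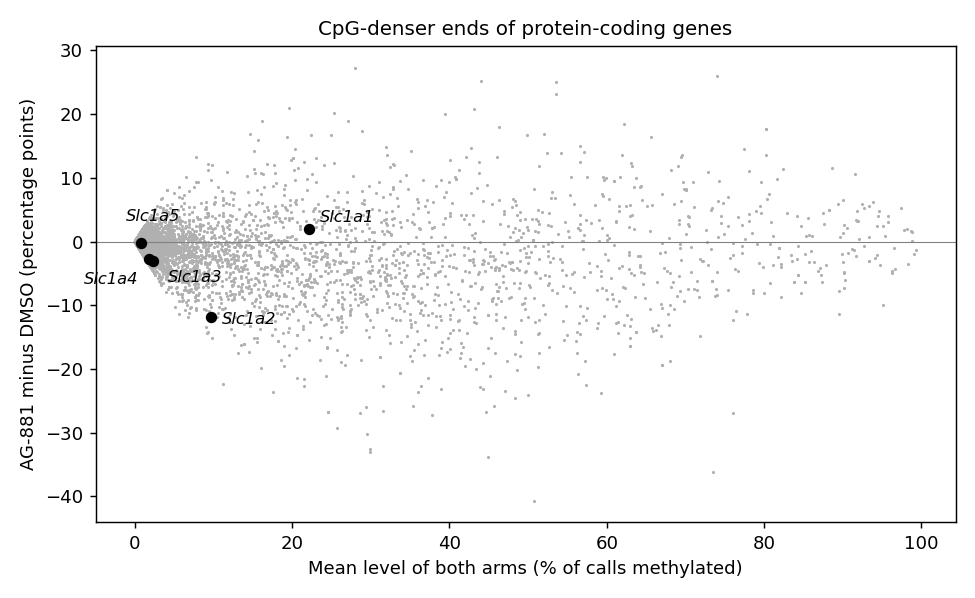
Difference between arms (AG-881 minus DMSO, percentage points) against the mean level of both arms (% of calls methylated) for the 9193 measured gene ends (grey), with the 5 Slc1a genes in black. Slc1a2 lies at -11.8 points, in the lower part for its level. Slc1a3 and Slc1a4 lie at about -3 points, and Slc1a5 and Slc1a1 lie near 0.

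The gene ends most like Slc1a2 over the 8 pools, by the smallest mean absolute difference in level among 7633 ends, were Tspan18, Sned1, Fzd7, Abr and Oog1. This likeness is a description, since all share the pools, and it was 2.49 to 3.49 points. The ends were picked for levels near those of Slc1a2 in every pool, so their lower levels with AG-881 follow from the choice. The pools of the arms overlapped in all of them but Sned1, and nothing is read from that. Tspan18, a tetraspanin gene, stood at 7.56% with AG-881, against 14.6% with DMSO. Sned1, which encodes an extracellular matrix protein, stood at 2.54% with AG-881, against 12.98% with DMSO, and Fzd7, a Wnt receptor gene, at 5.77% with AG-881, against 13.7% with DMSO. Abr stood at 7.41% with AG-881, against 15.9% with DMSO. Oog1, an oocyte gene of a multicopy family, stood at 4.598% with AG-881, against 14.8% with DMSO, over 2 CpGs, and reads from its copies may not be told apart.

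The nearest measured gene end on each side of Slc1a2 had few methylated calls with DMSO. A decrease as large as that of Slc1a2 could not occur there. Fjx1, 206 kb before the 5′ end, stood at 6.30% with AG-881, against 8.38% with DMSO (-2.08 points, -5.86 to 1.497), and Abtb2, 908 kb after it, stood at 0.536% with AG-881, against 0.181% with DMSO. Beside the other members, the ends of LOC102634078, Nadk2, Glis3, Plpp6, Cep68, Sertad2, Ap2s1 and Strn4 lay between 0% and 2.13% with AG-881 and between 0% and 3.01% with DMSO. The partly methylated end of Slc1a1 therefore lies between the ends of Glis3, with 0.313% with AG-881 and 0.750% with DMSO, and Plpp6, with 1.95% with AG-881 and 3.01% with DMSO.

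Of 42 other genes of glutamate and glutamine handling (glutaminases, transaminases, transporters and glutamate receptors), 19 had a measured end. Of these, 11 were lower with AG-881 and 8 higher, against 51.4% lower and 31.6% higher among all gene ends. The median difference was -0.709 points against -0.0301 over all ends, and it turned positive when AG-881 pool 4 (0.0452 points) or DMSO pool 7 (0.227 points) was left out. The ends of the list were more methylated than gene ends at large. Their median level was 9.05% with AG-881 and 11.25% with DMSO, against 0.667% and 0.870% over all ends. The comparisons with all ends were not matched for level. By at least 10 points, 1 of the 19 was lower, against 3.51% of all ends. That gene was Grik3, which encodes a kainate receptor subunit, with 32.2% with AG-881 and 51.7% with DMSO (-19.5 points, -29.1 to -9.54). Its pools ran from 13.5% to 45.2% with AG-881 and from 34.6% to 65.5% with DMSO, so they overlapped. Slc38a2, the gene of a glutamine carrier, stood at 1.38% with AG-881, against 10.7% with DMSO (-9.28 points, -14.2 to -4.75), and its AG-881 pools (0% to 2.38%) lay below its DMSO pools (5.45% to 16.7%). That order was found at 1.3% of 9058 gene ends with calls in all 8 pools. Nothing is read from it, since Slc38a2 is named for its large decrease. Slc1a6, the gene of a glutamate carrier of Purkinje cells and a further family member, stood at 10.8% with AG-881, against 18.8% with DMSO (-7.91 points, -19.7 to 3.85). The 3 largest increases were Grm7 with 37.1% with AG-881 and 28.6% with DMSO, Gria4 with 34.4% with AG-881 and 30.9% with DMSO, and Grin2b with 15.5% with AG-881 and 14.2% with DMSO, and each interval of the difference included 0. Glul, the gene of glutamine synthetase, which astrocytes use to turn the glutamate they take up into glutamine, had 0 of 273 calls methylated with AG-881 and 2 of 282 with DMSO.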

How the data were processed

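Single-cell reduced representation bisulfite sequencing (MspI) and Smart-seq2 had been run on sorted cells, per the labels' protocols, and of these only the methylation values were used. The authors deposited a methylated fraction per position and cell that takes the values 0, 0.5 or 1 (0.412% of 12325314 values were 0.5), without read counts, so the depth behind a call is unknown. Positions are on mm10 (per the submitters' processing notes). The tools for alignment and methylation calling, and any cutoff on reads, are not given in the sources used. Columns name the arm, pool and barcode but not the well, so they were assigned to arms.

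Adjacent positions were merged as the strands of 1 CpG. In the RefSeq promoter sequences, 99.9% of 11055 runs of 3 positions were C, G and C of CGCG, so a run of 3 or more was read as a CpG followed by strand pairs. Runs of 2 positions were all merged, although 82.4% of 1780 were the C and G of 1 CG and 17.6% were not. This gave 1324184 CpGs, 419609 of them with calls in 5 or more cells per arm. A CpG was methylated in a cell above 50%, and ties (0.450% of calls) were left out. Levels pool the calls of an arm; intervals are Clopper-Pearson at 95%, and differences combine both intervals. A level of 0 was given an upper limit of 3 calls over all calls, which takes calls as independent. Stretches join all neighbouring called CpGs up to 300 bp apart that share at least 0.5 of their cells. A gene end needed at least 50 calls and 10 cells per arm; ends come from the RefSeq gene table, and no genome was used. Genes named beside the members are the nearest measured end on each side, the 3 largest decreases and increases of the glutamate list, and the 5 ends most like Slc1a2 with at least 10 calls in every pool. The members, lists and rules were chosen with earlier results of these data known. Incomplete bisulfite conversion would raise every level. Calculations were tested on simulated data with independent calls and used Python 3.11.15, numpy 2.4.6, scipy 1.17.1 and matplotlib 3.10.9.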

Additional observations from a re-analysis of the deposited data

How the results depend on the processing

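Settings tried were the cell minimum, the weighting, the window, the merging of positions and leaving out each library pool or cell; those on merging by the first position of a run, on pools at fixed CpGs, on single cells and on the CpGs from 871 to 972 bp were chosen after seeing the data. Over 12 results and 215 settings, 207 stayed within the main value's interval or within 1.5 times a main count. That count cannot show that a value held, because many intervals were wide and the settings share most of their calls. The Slc1a3 body difference counted as within its interval at 0.992 points, against 13.9 points. So did the changes of sign at the Slc1a2 body and the Slc1a1 end. The Slc1a2 5′ end difference lay between -16.6 points (without AG-881 pool 4) and -9.11 points (every CpG weighted equally), and was below 0 in all 27. The body difference of Slc1a3 was 0 where 10 cells per arm were required. That left only the unmethylated CpG at chr15:8663701, with 10 AG-881 and 15 DMSO calls, so no difference could appear. The Slc1a5 end difference was -4.17 points with a window of 500 bp, -5.56 without AG-881 pool 3 and -5 without DMSO pool 6, each on fewer calls. Slc1a2 CpGs lower with AG-881 numbered 3 at 10 cells of each arm, 14 without DMSO pool 5 and 9 without DMSO pool 7, against 22, with fewer CpGs compared. Gene ends lower by at least 10 points made up 2.14% at 100 calls and 20 cells per arm, against 3.51%. The glutamate list's median ran from -3.42 points (without DMSO pool 8) to 0.227 (without DMSO pool 7). No value was obtained for the Slc1a4 body, for the Slc1a5 end and body at 10 cells, or for the Slc1a5 body without DMSO pool 6. No paired analysis was possible because the table's columns do not name the wells, so the well labels that both arms share could not be tied to cells, and the cells of the arms are different cells.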
